A study of Mus musculus with 4 samples.

Results

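Serine, glycine and folate metabolism is represented here by 10 enzyme genes, Phgdh, Psat1, Psph, Shmt1, Shmt2, Gldc, Mthfd1, Mthfd2, Mthfd1l and Aldh1l1. They were followed on every probe set, a group of short probes for 1 transcript, whose annotation names 1 of these genes and no other. That gave 24 probe sets, out of 45037 on the array that are not controls and out of 18193 genes named in this way. RNA was taken from neuroepithelial cells, the dividing precursors of the forebrain, prepared from the telencephalon of ICR mouse embryos. Cells of the E14.5 group came from embryonic day 14.5 and were cultured for 4 days (2 arrays), and cells of the E11.5 group came from embryonic day 11.5 and were cultured for 1 day (2 arrays). All were grown with 10 ng/ml basic FGF, which sustains the division of these cells, in N2-supplemented medium on polyornithine and fibronectin. Embryonic stage and length of culture differ together between the groups, so their effects cannot be told apart.

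Cells make serine from a glycolytic intermediate in a short chain of reactions, and pass a carbon unit from serine to the vitamin folate as serine becomes glycine. Folate carries that unit, in the mitochondrion and in the cytosol, to the synthesis of purines, thymidylate and methionine. Dividing cells depend on this supply, and the developing neural tube is known for its need of folate. In the mature brain Aldh1l1, which oxidises formyl-folate, is a widely used marker of astrocytes.

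Of the 10 genes, each taken at its brightest tested probe set, 2 were higher and 2 lower in E14.5 than in E11.5 cells, and 6 did not pass the test. Aldh1l1 and the phosphatase Psph rose, while Mthfd2 and Mthfd1l, a pair of mitochondrial folate enzymes, fell. Over all 12952 genes tested, 27.8% were called, 14.3% as higher and 13.6% as lower at E14.5, and with 4 of 10 genes called no departure from that background is read from the members as a group. Calls are those with an adjusted p under 0.05 in limma, an adjustment over all 27022 tested probe sets. The 10 genes had a median log2 difference (E14.5 minus E11.5) of -0.15, and all tested genes one of 0.029. Counted by probe set, 2 were higher, 6 lower and 15 did not pass of the 23 tested, where 11.1% and 12.6% of all tested probe sets were higher and lower; the count of lower probe sets includes 3 of Shmt1, whose brightest probe set did not pass. The groups did not overlap in 16 of these 23 (61.9% of all tested probe sets), and in 12 of them the E14.5 arrays were the lower ones (31.9% of all tested).

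**Figure D1:**
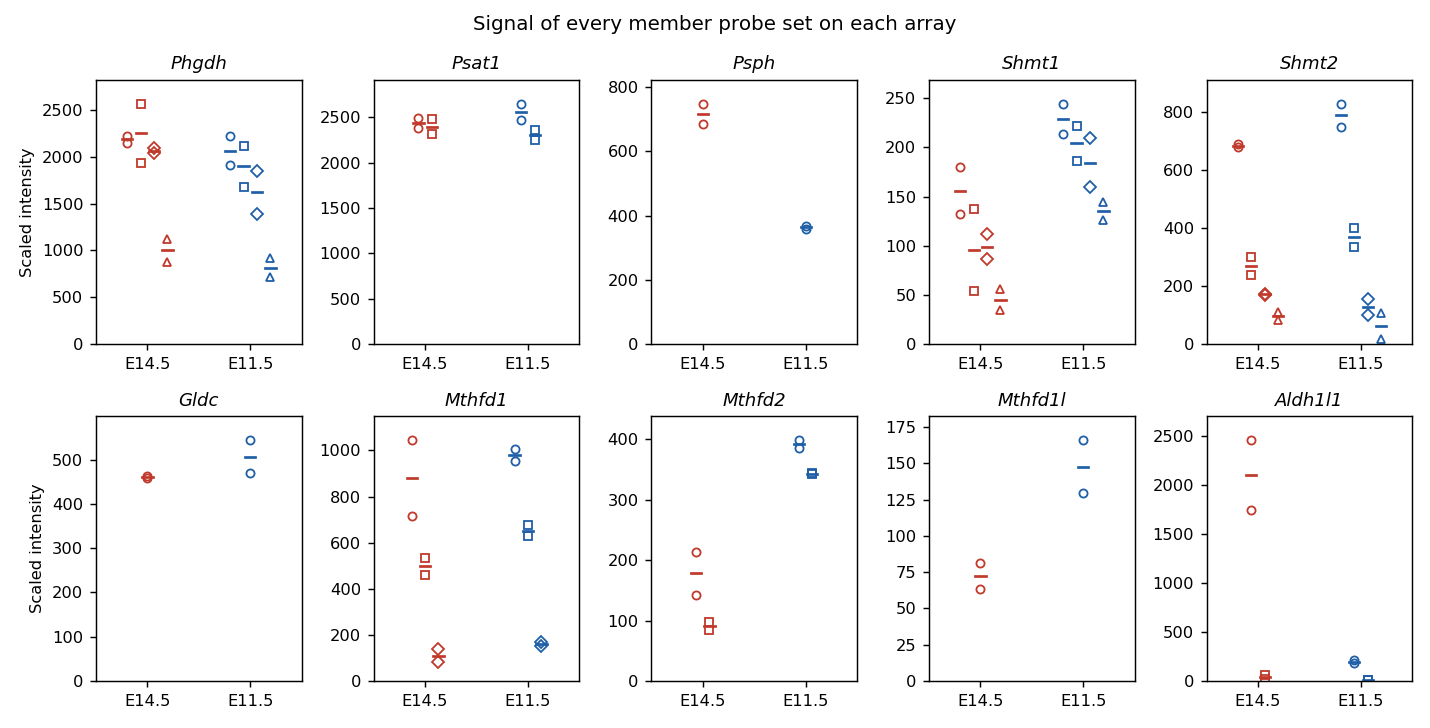
Scaled intensity (vertical axis, linear from 0) of all 24 member probe sets on the 2 E14.5 arrays (left in each panel) and the 2 E11.5 arrays (right). Each symbol shape is 1 probe set, ordered from brightest to dimmest, each point 1 array and each bar a group mean; Psph and Aldh1l1 are higher on both E14.5 arrays, and Mthfd2 and Mthfd1l are lower.

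Values in the text are intensities after each array was scaled to a common trimmed mean, and each log2 difference is E14.5 minus E11.5 with its standard error (n = 2 arrays per group), taken after adding 12.8 to the scaled intensity. Scaling multiplied the E14.5 arrays by 1.13 and 1.68 and the E11.5 arrays by 0.932 and 0.691. Without scaling the median of all genes shifted to -0.69, and 9.89% of called genes were higher at E14.5, against 51.3% with it, so that each direction given here is relative to the average gene. Markers of neural progenitors were bright in both groups, with a summed intensity of 33845 and 35279 on the E14.5 arrays and 22151 and 20461 on the E11.5 arrays over 9 genes. Of these 9, 5 were higher and 1 lower, Pax6. These counts and those that follow stand beside 14.3% of all tested genes higher and 13.6% lower. Markers of other cell types differed as well: among genes with both group means above 27.3, the limit for testing (set on the mean over all arrays), 5 of 5 of oligodendrocyte precursors and 4 of 5 of microglia were higher, and 10 of 11 of neurons and 4 of 7 of meninges lower. Both tested red cell genes and 1 of 2 endothelial genes passed that limit only through the group in which they were brighter, so they are not counted. The sum over 8 markers of oligodendrocyte precursors was 19002 and 20948 at E14.5 and 906 and 686 at E11.5, over 12 microglial markers 2238 and 2212 against 304 and 402, and over 12 neuronal markers 5286 and 5082 against 15687 and 16196. Over 4 erythroid markers it was 31.7 and 32.9 against 806 and 357, over 7 meningeal markers 1007 and 723 against 1895 and 2097, and over 8 endothelial markers 194 and 205 against 239 and 198. No intensity in the table was exactly 0. In such bulk RNA, fewer cells of a type and less RNA per cell cannot be told apart, and the part of these cell types in the differences of the members was not tested.

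The promoters of the 4 genes that passed the test are shown first, so that their differences can be read beside the sequence at which transcription starts. Each window, from RefSeq on GRCm38.p6, runs 5′ to 3′ from 250 bases before the start site to 50 after it, and capitals mark CCAAT, or ATTGG where it lies on the opposite strand. The Psph window is chr5:129787204-129787503 (minus strand), that of Aldh1l1 chr6:90550543-90550842 (plus), that of Mthfd2 chr6:83317555-83317854 (minus) and that of Mthfd1l chr10:3972825-3973124 (plus).
Psph: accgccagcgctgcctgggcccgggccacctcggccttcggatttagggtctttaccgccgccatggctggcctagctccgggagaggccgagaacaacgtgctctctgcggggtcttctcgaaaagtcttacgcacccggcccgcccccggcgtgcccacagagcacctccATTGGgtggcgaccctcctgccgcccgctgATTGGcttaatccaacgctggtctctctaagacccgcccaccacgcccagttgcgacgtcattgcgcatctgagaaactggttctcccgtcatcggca
Aldh1l1: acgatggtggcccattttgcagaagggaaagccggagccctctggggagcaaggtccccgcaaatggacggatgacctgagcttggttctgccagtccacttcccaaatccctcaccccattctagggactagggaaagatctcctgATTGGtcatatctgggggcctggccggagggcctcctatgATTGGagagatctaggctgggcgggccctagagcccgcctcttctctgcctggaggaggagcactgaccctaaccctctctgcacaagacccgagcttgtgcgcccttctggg
Mthfd2: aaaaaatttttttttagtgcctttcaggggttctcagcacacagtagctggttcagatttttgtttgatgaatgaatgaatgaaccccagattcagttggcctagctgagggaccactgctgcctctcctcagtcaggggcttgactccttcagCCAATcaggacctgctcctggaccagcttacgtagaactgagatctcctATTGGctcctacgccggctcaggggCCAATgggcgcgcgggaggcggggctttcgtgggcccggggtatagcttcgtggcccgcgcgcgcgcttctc
Mthfd1l: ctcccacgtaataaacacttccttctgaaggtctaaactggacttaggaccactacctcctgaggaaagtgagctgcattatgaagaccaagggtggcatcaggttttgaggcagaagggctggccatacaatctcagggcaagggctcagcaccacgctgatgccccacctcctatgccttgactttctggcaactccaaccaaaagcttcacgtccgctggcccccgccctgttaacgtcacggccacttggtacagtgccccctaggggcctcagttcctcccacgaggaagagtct
CCAAT is the sequence known to be bound by the factor NF-Y. It occurred 2 times in the Psph window, 2 times in that of Aldh1l1, 3 times in that of Mthfd2 and not at all in that of Mthfd1l. Of all 10 genes 8 had at least 1 match in a window, the exceptions being Mthfd1l and Shmt2, where 41.1% of all 27025 genes with a window had one (37.4% of 32851 windows; Psat1 has 2 windows). Matches were thus present in genes that rose, in 1 that fell and in genes that did not pass. CACGTG, an E-box bound by Myc, and TGATGNAA, the core of an element bound by ATF4, were searched on both strands and had no match in any member window, against 8.09% and 4.51% of all genes. These motifs were chosen after the windows and values had been seen, and a match or its absence is only a description of letters.

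In the serine synthesis chain the last enzyme rose, while Phgdh and Psat1 did not pass the test. Psph, the phosphatase that releases serine from phosphoserine, had 747 and 684 in E14.5 cells, against 367 and 359 in E11.5 cells. Both E14.5 arrays lay above both E11.5 arrays, with means in a ratio of 1.97. The log2 difference was 0.95 ± 0.14 (limma, adjusted p = 0.000915), and 0.89 to 1.02 when any 1 array was left out. As deposited, without scaling, it was 0.19 and did not pass (adjusted p = 0.756).

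Phgdh, the dehydrogenase that opens the chain, has 4 probe sets, all of a class whose probes may also bind other transcripts. At the brightest (1426658_x_at) the E14.5 arrays had 2219 and 2151, against 1914 and 2219 on the E11.5 arrays. The groups overlapped, and the log2 difference of 0.08 ± 0.13 had a 95% interval of -0.20 to 0.37. The next probe set (1454714_x_at) had 1938 and 2565 at E14.5, against 2116 and 1682 at E11.5, and a difference of 0.24 ± 0.16. For 1437621_x_at the values were 2038 and 2094 at E14.5, against 1853 and 1387 at E11.5, without overlap (0.36 ± 0.15, limma adjusted p = 0.112). The dimmest (1456584_x_at) had 880 and 1122 at E14.5, against 919 and 713 at E11.5 (0.29 ± 0.17). All 4 differences were positive and none passed. Without E11.5 replicate 1 alone, 1437621_x_at (0.57, limma adjusted p = 0.00487) and 1456584_x_at (0.47, adjusted p = 0.0485) passed, and the sign of the brightest turned there (-0.022) and under quantile normalization (-0.019).

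Psat1, the aminotransferase of the second step, has 2 probe sets. At 1451064_a_at the E14.5 arrays had 2494 and 2388, against 2469 and 2650 on the E11.5 arrays. At 1454607_s_at they had 2482 and 2314, against 2364 and 2248. The differences were -0.07 ± 0.12 (95% interval -0.33 to 0.20) and 0.06 ± 0.12 (-0.21 to 0.32), with overlapping groups at both. A change of more than 0.33 on the log2 scale, in either direction, thus lay outside the intervals of both probe sets. These intervals reflect spread between arrays under the scaling used, and without scaling the sign at 1454607_s_at turned. To set Psph against its partners without any scaling, the change of 1 gene was subtracted from that of the other within each array, a measure chosen after the values were seen. At their brightest probe sets, the change of Psph exceeded that of Phgdh by 0.89 ± 0.13 and that of Psat1 by 1.05 ± 0.074. These values are on the log2 scale of the deposited intensities, with no overlap between the groups. The brightest Phgdh probe set had the smallest difference of 4 (0.08, against 0.24 to 0.36), and that of Psat1 the lower of 2. Their other probe sets were not compared in this way. The exact two-sided permutation test gave p = 0.333 for each of the 6 pairs so compared, the smallest p that 2 arrays against 2 allow, and 0.333 after adjustment over the 6.

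Shmt1 and Shmt2, the cytosolic and mitochondrial enzymes that turn serine into glycine and load folate, each have 4 probe sets. Shmt1 had lower values at E14.5 on all 4, and 3 of these passed the test. At 1422198_a_at it had 56.1 and 34.4 at E14.5, against 144 and 127 at E11.5 (-1.38 ± 0.26, limma adjusted p = 0.00402). At 1425178_s_at it had 112 and 86.3, against 209 and 159 (-0.81 ± 0.22, limma adjusted p = 0.0235). At 1425179_at it had 137 and 54.0, against 222 and 186 (-1.11 ± 0.33, limma adjusted p = 0.0342). The brightest, 1425177_at, had 180 and 132 at E14.5, against 244 and 214 at E11.5, and did not pass (-0.53 ± 0.20, adjusted p = 0.0845). None of the 4 overlapped between groups, and the mean of the 4 as 1 value passed (-0.96, limma adjusted p = 0.00904). The calls depended on single arrays: 1425178_s_at was lost without E14.5 replicate 2 (-0.65) or E11.5 replicate 1 (-0.63), 1425179_at was lost without E14.5 replicate 2 (-0.53), and 1425177_at passed without E14.5 replicate 1 (-0.74, adjusted p = 0.0326).

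Shmt2 did not pass on any of its 4 probe sets, which pointed in both directions. All but 1426423_at are of the class whose probes may also bind other transcripts. The brightest, 1455084_x_at, had 677 and 689 at E14.5, against 827 and 749 at E11.5 (-0.20 ± 0.13, 95% interval -0.50 to 0.099). The probe set 1426423_at had 301 and 237, against 401 and 333 (-0.43 ± 0.18, adjusted p = 0.112). Both were lower on each E14.5 array than on either E11.5 array. At 1455985_x_at the values were 170 and 172 at E14.5, against 100 and 157 at E11.5 (0.41 ± 0.23). At 1434204_x_at they were 83.7 and 111, against 109 and 17.6 (0.85 ± 0.52), a probe set on which the E11.5 arrays differed most. Without E11.5 replicate 1 this last probe set passed as higher (1.84, limma adjusted p = 0.000156), and without E11.5 replicate 2 its sign turned (-0.15). The change of Shmt1 minus that of Shmt2, at their brightest probe sets, was -0.36 ± 0.23 on the deposited log2 scale.

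Gldc, the glycine-decarboxylating subunit of the mitochondrial system that feeds a carbon unit from glycine to folate, had 463 and 459 at E14.5, against 470 and 543 at E11.5. The E14.5 arrays lay just below both E11.5 arrays, and the difference of -0.13 ± 0.15 (95% interval -0.46 to 0.20) did not pass.

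The folate enzymes proper divided by gene. Mthfd2, the mitochondrial dehydrogenase and cyclohydrolase that is typical of embryonic and dividing cells, had 214 and 143 at E14.5, against 386 and 398 at E11.5, on its brighter probe set (1419253_at). On the other (1419254_at) it had 84.1 and 97.2 at E14.5, against 344 and 342 at E11.5. Both probe sets were lower on each E14.5 array, by means in an E14.5 over E11.5 ratio of 0.455 and 0.264. The log2 differences were -1.11 ± 0.20 (limma, adjusted p = 0.00295) and -1.79 ± 0.18 (adjusted p = 8.93e-05), and both calls held without any 1 array and under every scaling tried. Of the 12952 genes, 5.48% had a lower difference than the brighter probe set.

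Mthfd1l, the mitochondrial synthetase that releases formate, had 81.0 and 63.2 at E14.5, against 166 and 130 at E11.5. The groups did not overlap and the difference was -0.92 ± 0.23 (limma, adjusted p = 0.0169). The call was lost without E14.5 replicate 2 (-0.77, adjusted p = 0.0607), without E11.5 replicate 1 (-0.75, adjusted p = 0.0873) and with no filter on dim probe sets (adjusted p = 0.0537). Leaving out either of these arrays therefore left 1 member gene called lower, and leaving out E14.5 replicate 1 gave 3, with Shmt1.

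Mthfd1, the cytosolic enzyme that carries out the corresponding reactions in a single protein, did not pass on any of 3 probe sets. The brightest (1415916_a_at) had 1043 and 713 at E14.5, against 1006 and 952 at E11.5, with overlap (-0.18 ± 0.18, 95% interval -0.57 to 0.21); its sign turned without E14.5 replicate 2 (0.091). At 1415917_at the values were 535 and 458, against 678 and 627 (-0.39 ± 0.15, adjusted p = 0.0847). At 1436704_x_at they were 138 and 81.1, against 168 and 149 (-0.52 ± 0.25), and this probe set passed without E14.5 replicate 1 (-0.87, limma adjusted p = 0.0244). All 3 differences were negative, and 1436704_x_at is of the class whose probes may also bind other transcripts. Within arrays, at each gene's brightest probe set, the log2 change of Mthfd2 was lower than that of Mthfd1 by -0.98 ± 0.065. That of Mthfd1l was lower than that of Mthfd1 by -0.85 ± 0.17. Groups did not overlap in either comparison, and the exact permutation p was the 0.333 given above. The Mthfd1 probe set used had the smallest fall of its 3, -0.18 against -0.39 and -0.52. The other probe sets were not compared in this way.

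**Figure D2:**
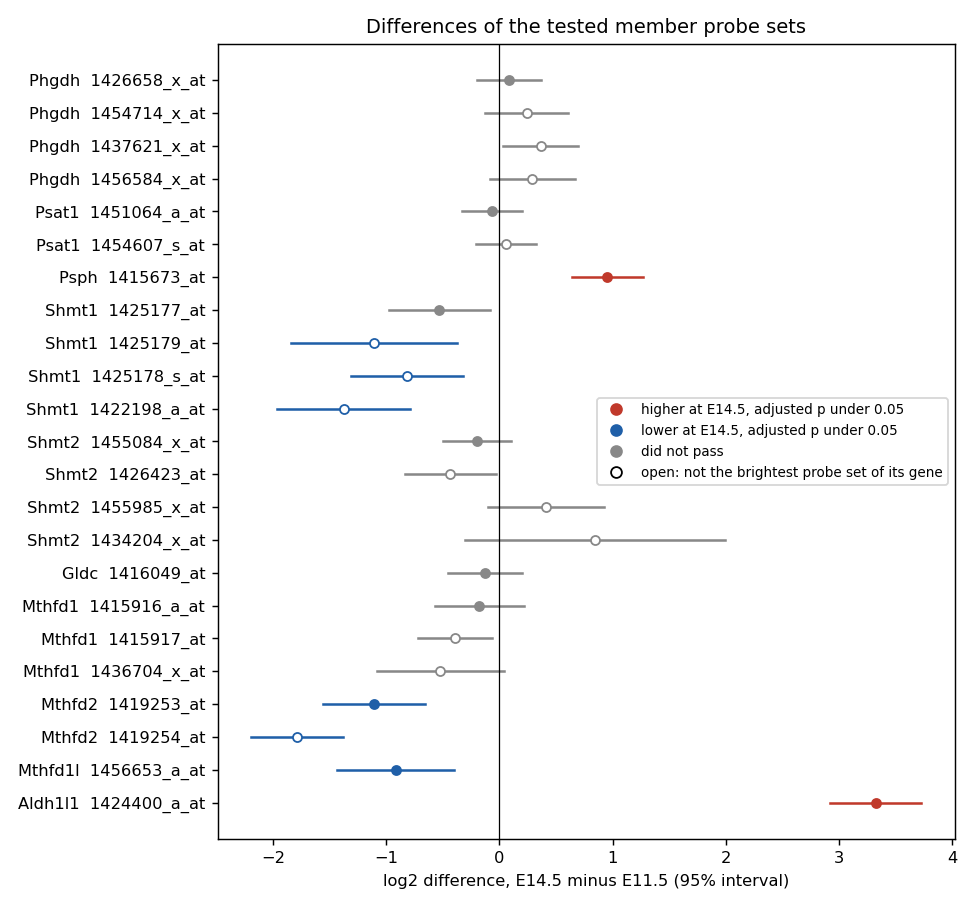
Log2 difference, E14.5 minus E11.5 (horizontal axis), of the 23 tested member probe sets with 95% intervals from limma, grouped by gene. Filled points are the brightest probe set of a gene; Aldh1l1 at 3.32 stands far to the right of the other members, which lie between -1.79 and 0.95.

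Genes of DNA replication and mitosis were also lower in the cells in which Mthfd2, Mthfd1l and 3 probe sets of Shmt1 were called lower. Of 16 S phase and mitosis genes tested, 14 were lower and none was higher at E14.5, against a background of 13.6% lower, with Cdc6 (-2.17 ± 0.20) and Cdt1 (-1.37 ± 0.17) changing most. Their summed intensity was 22370 and 19210 on the E14.5 arrays and 34593 and 32887 on the E11.5 arrays. The part of this in the differences of Mthfd2, Mthfd1l and Shmt1, and in those of the thymidylate and purine genes named further on, was not tested.

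Aldh1l1 showed by far the greatest difference among the members. On 1424400_a_at it had 2456 and 1745 in E14.5 cells, against 212 and 180 in E11.5 cells. Each E14.5 array was several times above either E11.5 array, and the group means stood in a ratio of 10.7. The log2 difference was 3.32 ± 0.18 (95% interval 2.92 to 3.72, limma adjusted p = 1.98e-06), and 3.08 to 3.57 without any 1 array. It ranked as rise number 53 of 12952 genes. Without scaling it was 2.57, and it passed under every alternative tried. The other probe set, 1424401_at, had 63.1 and 14.7 at E14.5, against 4.83 and 8.10 at E11.5. Its mean over the arrays lay below the limit for testing, an intensity of 27.3; with no filter its difference was 1.25 ± 0.51 and did not pass (limma adjusted p = 0.189). At their brightest probe sets, the change of Aldh1l1 exceeded that of Mthfd1 within arrays by 3.59 ± 0.084.

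Most astrocyte markers stood higher in the same cells. Of 6 with both group means above the limit for testing, 5 were higher and none lower at the brightest probe set (background 14.3% higher). Apoe was among those higher (4.37 ± 0.23). The other gene, Gja1, did not pass there (-0.60 ± 0.24, with overlapping groups). Some dimmer probe sets of Gja1 were called lower (-0.98, limma adjusted p = 0.0107, and -0.87, adjusted p = 0.0397), and its others did not pass. Another 3 astrocyte markers, among them Aqp4 (3.96 ± 0.21), were called higher but had E11.5 means under that limit. Their sum over 10 genes was 18641 and 13954 at E14.5, against 5903 and 6138 at E11.5. The part of this in the rise of Aldh1l1 was not tested.

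**Figure D3:**
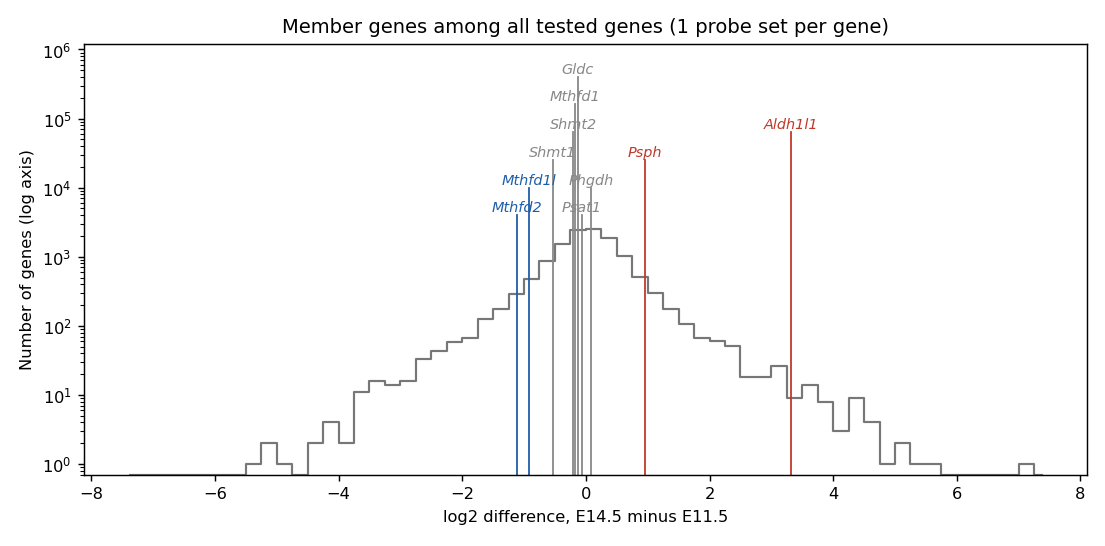
Number of genes (vertical axis, log scale) in each 0.25-wide bin of the log2 difference, E14.5 minus E11.5, for all 12952 tested genes, with the 10 member genes as lines at their brightest probe set, whose height carries no value. Red marks higher, blue lower and grey not passed; 6 members lie near the centre, while Aldh1l1 lies in the upper tail.

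Companion genes that deliver, store or use the products of these enzymes were followed in 6 further lists, to be read against the 14.3% of all tested genes that were higher and the 13.6% that were lower at E14.5. Among glycine cleavage partners and mitochondrial folate genes, 2 of 6 tested were higher and 1 was lower. Sardh, which demethylates sarcosine to glycine, had 158 and 136 at E14.5, against 21.8 and 10.4 at E11.5 (2.49 ± 0.30). Its E11.5 mean of 16.1 lay under the limit for testing, which Sardh passed only through the E14.5 arrays, and without it 1 of 5 genes of this list was higher. Aldh1l2, the mitochondrial relative of Aldh1l1, had 424 and 426, against 250 and 195 (0.90 ± 0.17); without scaling it was 0.16 and did not pass. Mthfd2l, the mitochondrial relative of Mthfd2, had 413 and 364, against 656 and 701 (-0.79 ± 0.15), and 3 of its 4 probe sets were lower. Each relative thus had the same sign as its partner on these arrays. Gcsh, the lipoyl carrier of the glycine cleavage system (1634 and 1184 at E14.5, against 1701 and 1459 at E11.5), and Dld, its dehydrogenase (673 and 579, against 575 and 685), did not pass.

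Among 7 genes of folate uptake and storage, 1 was higher and none lower. Without 2 genes that passed the limit for testing only through their brighter group, neither of them called, 1 of 5 was higher. Ggh, the lysosomal hydrolase that trims the glutamate tail of folate, had 525 and 532 at E14.5, against 215 and 178 at E11.5 (1.38 ± 0.16; 0.63 and not passed without scaling). The folate carrier Slc19a1 (209 and 229, against 192 and 207) and Fpgs, which adds the glutamate tail (178 and 165, against 158 and 146), did not pass. Of 3 genes of the cytosolic folate cycle and thymidylate synthesis tested, 2 were lower. Without Tyms, which passed the limit for testing only through the E11.5 arrays, 1 of 2 was lower. The thymidine kinase Tk1, a salvage enzyme, had 481 and 438 at E14.5, against 1134 and 1004 at E11.5 (-1.19 ± 0.14). Tyms, which makes thymidylate with a folate carbon, had 34.8 and 18.4, against 68.0 and 66.6 (-1.05 ± 0.32, limma adjusted p = 0.0396), a dim signal with an E14.5 mean of 26.6, under the limit for testing, whose call was lost without E14.5 replicate 2 (-0.75) or without either E11.5 array (-1.04 and -1.06). Ftcd, a histidine-degrading folate enzyme, had 70.9 and 7.82, against 32.6 and 32.7, and did not pass.

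Purine synthesis, which takes carbon from formyl-folate, had 3 of 6 genes lower and none higher (13.6% and 14.3% of all tested genes). Gart, which uses that carbon directly, had 394 and 370 at E14.5, against 636 and 610 at E11.5 (-0.69 ± 0.14). Ppat, the committed step, had 162 and 148, against 262 and 234 (-0.63 ± 0.18), and Pfas had 269 and 273, against 386 and 404 (-0.52 ± 0.15). The calls of Ppat (lost without E14.5 replicate 2, -0.58, or E11.5 replicate 1, -0.56) and of Pfas (lost without any 1 array, -0.55 to -0.49) thus depended on single arrays. Paics (2239 and 2479, against 2518 and 2274) did not pass, nor did Atic, the other user of formyl-folate (569 and 511, against 725 and 724; -0.42 ± 0.14, limma adjusted p = 0.0532).

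In the methionine cycle and transsulfuration, 1 of 6 genes was higher and 2 were lower. Cbs, which condenses serine with homocysteine, had 415 and 295 at E14.5, against 57.8 and 20.7 at E11.5 (2.90 ± 0.33). Cth, the next enzyme toward cysteine, fell, with 78.0 and 112, against 226 and 191 (-1.05 ± 0.22). Ahcy, which clears the product of methylation reactions, had 1266 and 1194, against 1746 and 1567 (-0.42 ± 0.13, limma adjusted p = 0.0356), and lost its call without E14.5 replicate 1 (-0.47), E14.5 replicate 2 (-0.38) or E11.5 replicate 1 (-0.35). Mat2b (382 and 389, against 542 and 459) and Mtrr (143 and 125, against 151 and 170) did not pass.

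Transport, use and breakdown of serine and glycine had 6 of 14 genes higher and 1 lower (14.3% and 13.6% of all tested genes). Serinc5, a membrane protein of the serine incorporator family, had 327 and 354 at E14.5, against 66.6 and 49.1 at E11.5 (2.33 ± 0.21). Slc6a9, the glycine transporter of glia, had 469 and 557, against 169 and 160 (1.56 ± 0.17; 0.82 and not passed without scaling). The serine and alanine transporter Slc1a4 had 614 and 449, against 292 and 274 (0.86 ± 0.18; 0.11 and not passed without scaling). Its relative Slc1a5, a glutamine and neutral amino acid transporter, fell, with 44.6 and 38.1 at E14.5, against 233 and 207 at E11.5 (-2.10 ± 0.22, limma adjusted p = 0.000107). The amino acid transporter Slc38a2 (1760 and 1837, against 2235 and 2337; -0.34 ± 0.12) and Serinc1 (1490 and 1444, against 1295 and 1640) did not pass.

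**Figure D4:**
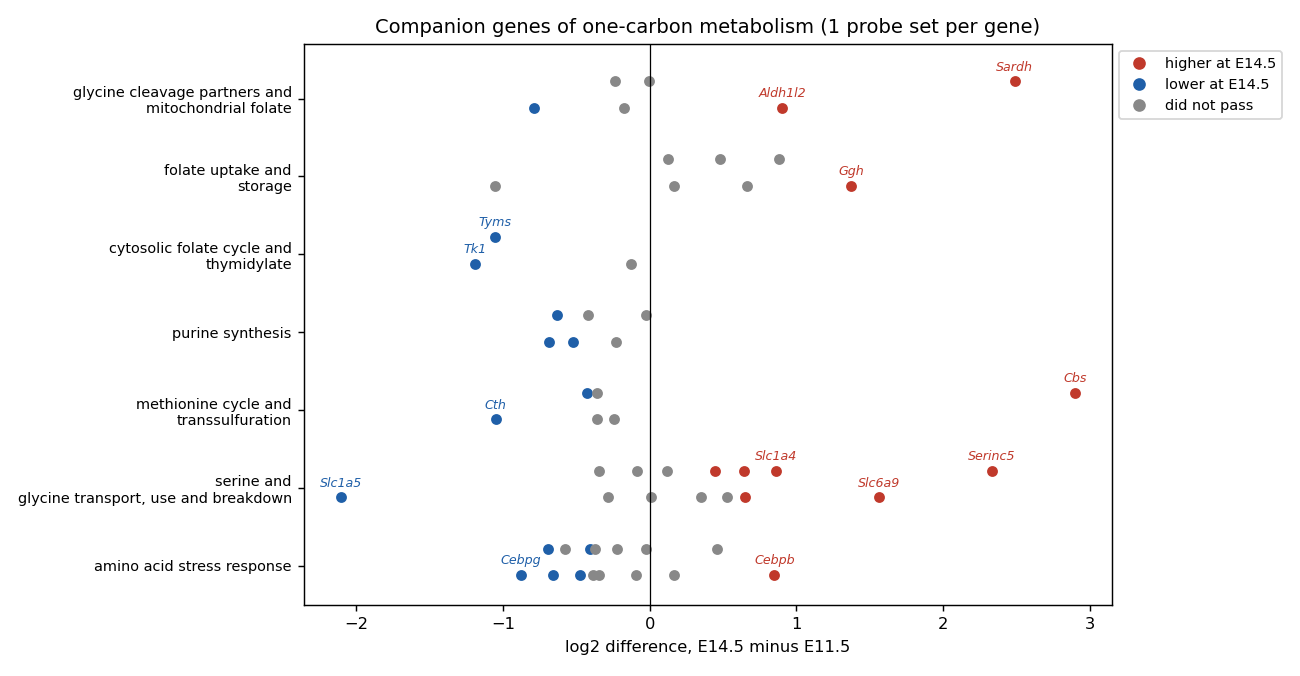
Log2 difference, E14.5 minus E11.5 (horizontal axis), of the 57 tested companion genes, 1 point per gene at its brightest probe set, in 7 lists; the height within a list carries no value. Red points (11) are higher and blue points (14) lower at E14.5 with an adjusted p under 0.05, and called genes beyond 0.8 in either direction are named. Of the called genes, Sardh (red) and Tyms (blue) passed the limit for testing only through the group in which they were brighter.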

How the data were processed

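The authors deposited 1 linear intensity per probe set and array, made with GCOS per the submitters' processing notes, with version and settings not given in the sources used here. Of 45101 probe sets, 64 controls were set aside. Of the rest, the annotation names 1 gene for 34945, several for 932 and none for 9160. Symbols were looked up by Entrez identifier, which updated 0 and left 204 unmatched. Each array was multiplied so that its 2% trimmed mean became 174. Those whose mean lay under the 40th percentile (27.3) were left out, and the 25th percentile of all values (12.8) was added before log2. R 4.3.3 with limma 3.58.1 (lmFit, and eBayes with a variance trend) tested the difference between the groups over 27022 probe sets (residual degrees of freedom 2, prior 7.99) with Benjamini-Hochberg adjustment; the code was tested on simulated data. A gene is represented by its brightest tested probe set. Nothing in the labels says that replicates came from separate cultures or animals, so p-values reflect spread between arrays alone, possibly technical, and 2 arrays per group limit the precision.

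Members and lists were chosen with earlier results of these data known. All member probe sets are named; of each companion list, up to 4 called genes by size of difference and up to 2 others by signal, and of marker lists up to 2 called genes. Of 72 companion genes 64 had a 1-gene probe set and 57 passed the filter. Control probe sets gave 3' over 5' ratios of 0.806 to 0.879 (Gapdh) and 1.10 to 1.14 (beta-actin). Alternatives were other scalings, pseudocounts, filters and variance models, averaged probe sets, a replicate block and leaving out each array. Replicate numbers did not pair the arrays (correlation of same-number deviations 0.0041).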

Additional observations from a re-analysis of the deposited data

How the results depend on the processing

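Some counts of calls moved by over 1.5 times in these cases. The counts given for the replicate block, at the end, moved less. Without scaling, 400 probe sets were higher in place of 3012, 1 member gene in place of 2 (Psph lost) and 3 companion genes in place of 11. Without the variance trend, 1919 probe sets were higher, 2097 were lower in place of 3396, and 7 companion genes were higher and 8 lower in place of 11 and 14. Without a filter 1 member gene was lower in place of 2. Leaving out 1 array gave 2268 to 3176 probe sets higher, 2733 to 3484 lower, 2 member genes higher throughout, 1 to 3 member genes lower, 8 to 11 companion genes higher and 8 to 11 lower; the lone array of a group is then assumed to vary like the other groups. The replicate numbers did not pair the arrays; as a block they gave 3312 probe sets higher and 3861 lower, with 2 and 2 member genes.

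Signs turned as follows, always for differences that did not pass. Without scaling the values were -0.69, -0.41, -0.54 and -0.48 for Phgdh (1426658_x_at, 1437621_x_at, 1454714_x_at, 1456584_x_at), -0.72 for Psat1 (1454607_s_at), -0.31 for Shmt2 (1455985_x_at), -0.61 for Slc19a1, -0.56 for Fpgs and -0.76 for Serinc1. Under quantile normalization they were -0.019 for Phgdh (1426658_x_at), -0.066 for Psat1 (1454607_s_at), 0.016 for Dld and -0.047 for Serinc1. Median scaling gave -0.032 for Serinc1, a larger pseudocount 0.0068 for Ftcd, and averaged probe sets 0.16 for Shmt2, -0.056 for Slc19a1 and -0.17 for Serinc1. Leaving out 1 array gave ranges of -0.022 to 0.19 for Phgdh (1426658_x_at), -0.15 to 1.84 for Shmt2 (1434204_x_at), -0.45 to 0.091 for Mthfd1 (1415916_a_at), -0.41 to 0.053 for Gcsh, -0.13 to 0.12 for Dld, -0.13 to 0.88 for Ftcd, -0.096 to 0.051 for Paics, -0.16 to 0.18 for Serinc1 and -0.085 to 0.032 for Sars. Ftcd was not tested without E14.5 replicate 1, where its mean lay under the filter; its difference there was -1.14. The cause was not tested. Of 309 values of member probe sets under alternatives, 278 kept direction and side of the threshold, 11 lost a call, 8 gained one and 12 changed sign. Of the 11 lost calls, 3 came with no filter and 2 without the variance trend.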

Other observations

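Genes of the amino acid stress response, the programme run by the transcription factor Atf4 that is known to include serine synthesis genes, had 5 of 15 tested members lower and 1 higher at E14.5, where 13.6% and 14.3% of all tested genes were lower and higher. Their median log2 difference was -0.37, that of all genes 0.029. Atf4 itself had 930 and 777 at E14.5, against 1450 and 1255 at E11.5 (-0.66 ± 0.14, limma adjusted p = 0.00828; -0.53 and adjusted p = 0.0545 without E14.5 replicate 2). Its dimerisation partner Cebpg had 254 and 253, against 465 and 488 (-0.88 ± 0.15), and the glycyl-tRNA synthetase Gars 1430 and 1296, against 2390 and 2039 (-0.69 ± 0.13). Cebpb was the member that rose, with 155 and 112, against 73.3 and 61.8 (0.85 ± 0.24, limma adjusted p = 0.0285), a call lost without E14.5 replicate 1 (0.63), without E11.5 replicate 2 (0.75) and without scaling (0.17). The synthetases Sars (1829 and 1985, against 2009 and 1875) and Aars (1048 and 898, against 1142 and 1130) did not pass.

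A pair of probe sets whose annotation names Phgdh together with another gene are not counted above. The one shared with Gm8096 had 878 and 797 at E14.5, against 956 and 848 at E11.5, and the one shared with Gm6756 had 689 and 1045, against 837 and 667; neither passed.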
